A study of Microcebus murinus with 8 samples.

Results

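The microRNAs described here are mmr-miR-145, mmr-miR-199 and mmr-miR-214 (below miR-145, miR-199 and miR-214, the prefix standing for the mouse lemur), 3 of the 108 listed in plasma small RNA libraries of the grey mouse lemur (Microcebus murinus), a small primate. They were chosen by name, as microRNAs known for smooth muscle (miR-145) and for mesenchyme and fibroblasts (miR-199 and miR-214), and each has a single entry without the arm of the hairpin. The plasma came from wild-type animals fed a dairy fat diet (4 samples, numbered 1 to 4) or a vegetable fat diet (4 samples, numbered 5 to 8), to ask whether the fat source is reflected in circulating microRNAs. Age, sex, time on the diet and the kinds of fat are not stated in the labels. They also do not say whether the 8 samples are 8 animals, so that a p-value here speaks only to sample-to-sample spread, which may in part be technical. Animals without either diet were not analysed here.

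MiR-145 is made from the same primary transcript as miR-143 in vascular and visceral smooth muscle, where in mice it promotes the contractile state, in part by repressing KLF4. MiR-199 and miR-214 are processed in mammals from a transcript that runs opposite to the dynamin gene DNM3, and further copies of miR-199 lie opposite other dynamin genes, so an entry named miR-199 need not come from that transcript alone. Both are known from mesenchymal development and from fibroblasts in fibrosis, and miR-214 represses EZH2. Plasma holds no tissue of its own: a circulating level cannot tell fewer source cells from less RNA per cell or less release, and the tissue named for each microRNA could not be checked here, since miR-143 is not analysed here.

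Levels are the authors' reads per 1000000 reads (RPM) over the 108 listed microRNAs. The values in each library were whole multiples of the value of 1 read, which gave 1408536 to 3437717 reads in the dairy fat libraries and 1061434 to 4004131 in the vegetable fat libraries. Across libraries a floor of 3 reads lies between 0.749 and 2.83 RPM. All 3 microRNAs were above this floor in every sample and passed the filter of 1 RPM in at least 4 samples, as did 104 of the 108. Intervals and floors cover counting error only, since nothing says if the authors collapsed reads to molecules.

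MiR-145 stood at 1464, 579, 144 and 607 RPM in dairy samples 1 to 4. In vegetable samples 5 to 8 it stood at 387, 1224, 111 and 1337 RPM. The high samples were 1, 6 and 8 and the low ones 3 and 7, so both diets held high and low samples and the groups overlapped.

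MiR-199 stood at 1696, 834, 329 and 1273 RPM in dairy samples 1 to 4. In vegetable samples 5 to 8 it stood at 746, 1376, 317 and 2839 RPM. Samples 3 and 7 were again the lowest, sample 8 was the highest, and the groups overlapped.

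MiR-214 was scarce, at 88.0, 9.67, 9.89 and 30.2 RPM in dairy samples 1 to 4. In vegetable samples 5 to 8 it stood at 18.3, 41.5, 3.996 and 65.9 RPM. Samples 1 and 8 were the highest and sample 7 the lowest. The value of sample 7 rests on 16 reads (95% Poisson interval 9.15 to 26.0 reads, or 2.28 to 6.49 RPM) and that of sample 1 on 124 reads (73.2 to 105 RPM), so the distance between these samples is beyond counting error. In samples 2 and 3 miR-214 rested on 30 and 34 reads, and their intervals overlap.

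**Figure D1:**
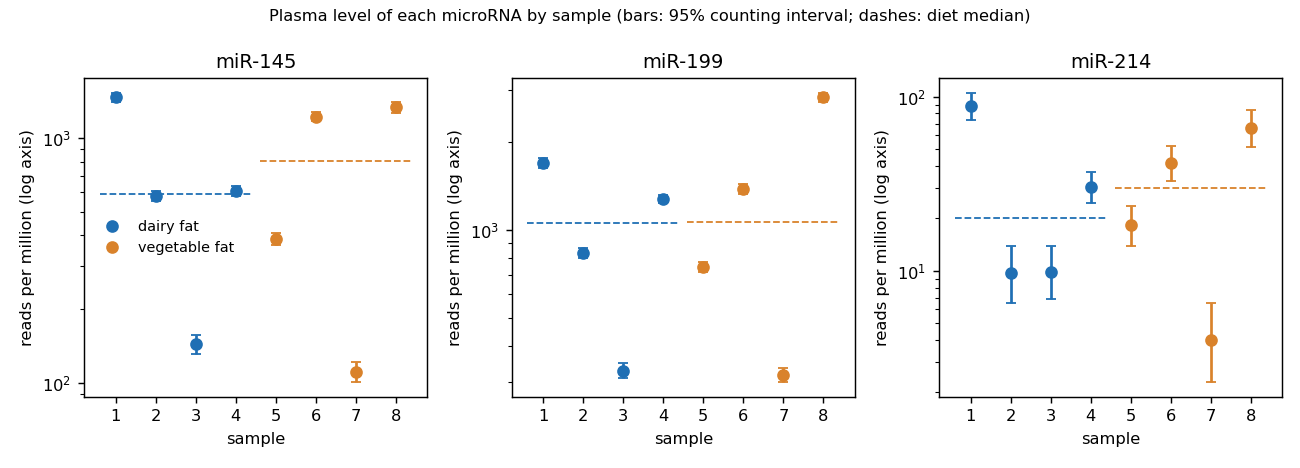
RPM (log axis) of miR-145, miR-199 and miR-214 in the 8 samples, with 95% Poisson counting intervals and a dashed line at each diet's median. Samples 3 and 7 are low and samples 1, 6 and 8 high for miR-145 and miR-199; miR-214 is lowest in sample 7, at 3.996 RPM, and highest in sample 1, at 88.0 RPM.

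Among the 108 by mean level, miR-199 ranked 35 (1176 RPM), miR-145 ranked 48 (732 RPM) and miR-214 ranked 88 (33.4 RPM). The order held in all 8 samples: miR-145 stood at 0.349 to 0.890 times miR-199, and miR-199 at 19.3 to 86.2 times miR-214. These are ratios of read shares, and how evenly the library kit captures the 3 sequences was not tested. Together the 3 took 0.0432% of the reads in sample 7 and 0.424% in sample 8, the lowest and the highest. Their summed level was 1766 ± 1152 RPM (SD, n = 4) in the dairy fat group and 2116 ± 1689 RPM (n = 4) in the vegetable fat group.

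The spread between samples was wide for all 3. From the lowest to the highest sample miR-145 ranged 13.2-fold, miR-199 8.95-fold and miR-214 22.0-fold, where the 104 tested microRNAs had a median fold range of 2.72 with quartiles of 2.01 and 6.56. By fold range they ranked 9, 13 and 6 of 104. On the log2(RPM + 1) scale their SDs over the 8 samples were 1.42, 1.11 and 1.44, against a median SD of 0.48. Large ranges were mostly those of scarce microRNAs: 19 of the 104 ranged more than 8-fold. Of those 3 had a mean above 100 RPM, namely miR-145, miR-199 and miR-100 (limits chosen after the values were seen). Others stood just outside these limits, among them miR-409 (95.2 RPM, 31.5-fold), miR-10 (803 RPM, 7.66-fold) and miR-10a (766 RPM, 7.46-fold). Single libraries set some of these values, since the range of miR-214 was 9.11-fold without vegetable sample 7, and that of miR-199 was 5.35-fold without vegetable sample 8. The range of miR-145 was 10.2-fold without sample 7 and 12.1-fold without dairy sample 1.

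**Figure D2:**
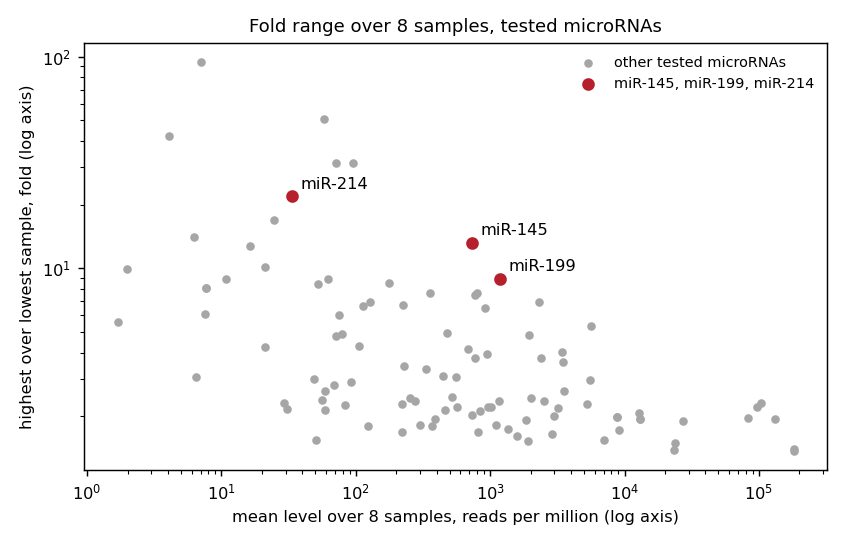
Fold from the lowest to the highest of 8 samples against mean RPM (both log axes), for the 104 tested microRNAs in grey and the 3 described here in red. MiR-145 (13.2-fold) and miR-199 (8.95-fold) lie above the other microRNAs of like abundance, and miR-214 (22.0-fold) lies among scarcer ones that also range widely.

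Wide ranges were present within each diet. On dairy fat the highest sample was 10.2-fold above the lowest for miR-145, 5.16-fold for miR-199 and 9.11-fold for miR-214. On vegetable fat these ranges were 12.1-fold, 8.95-fold and 16.5-fold.

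The diets were compared with limma on log2(RPM + 1) over all 104 tested microRNAs, as vegetable fat minus dairy fat. No microRNA was called at an adjusted p of 0.05 (0 of 104, 0%; 0 also had an unadjusted p under 0.05, and the smallest adjusted p was 0.999), and 0 of the 108 (0%) had groups that did not overlap. For miR-145 the group means were 698 ± 553 RPM for dairy fat and 765 ± 608 RPM for vegetable fat (SD, 4 samples each), with a log2 difference of −0.02 ± 0.87 (SE; 95% interval −1.95 to 1.92; limma adjusted p = 0.999). For miR-199 they were 1033 ± 587 and 1319 ± 1102 RPM, with a log2 difference of 0.16 ± 0.69 (−1.37 to 1.69; limma adjusted p = 0.999). For miR-214 they were 34.5 ± 37.0 and 32.4 ± 27.2 RPM, with a log2 difference of −0.06 ± 0.92 (−2.11 to 1.99; limma adjusted p = 0.999).

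For each of the 3, 2 of the 4 vegetable fat samples exceeded the median of the dairy fat samples. The median log2 difference of all 104 was 0.07, and under upper quartile factors it was −0.15. Relative to the median of all, miR-145 stood at −0.09 and −0.09, miR-199 at 0.09 and 0.09, and miR-214 at −0.13 and −0.12 under RPM and upper quartile factors. The intervals of the 3 were wider than most: over the 104 the median distance from estimate to interval end was 0.84 on the log2 scale, and as folds the interval ran from 0.258 to 3.77 for miR-145, from 0.387 to 3.23 for miR-199 and from 0.232 to 3.98 for miR-214. A 2-fold change in either direction lay inside the interval of each, and was thus not excluded at this spread. How large a change could be detected was not tested. The sign of all 3 differences turned when single samples were left out. With vegetable sample 7 left out the log2 difference was 0.72 for miR-145, 0.70 for miR-199 and 0.67 for miR-214, and none of these passed the limma test.

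Over the 8 samples the levels of the 3 ran in parallel, and 1 of the 3 pairs passed the test. On log2(RPM + 1) Pearson's r was 0.96 between miR-145 and miR-199 (exact permutation p = 0.000223, adjusted p = 0.0325 over all 5356 pairs of tested microRNAs). Spearman's rho for this pair was 0.98 (exact permutation adjusted p = 0.0366). Of all pairs, 2.5% were called with a positive r by this test.

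The other 2 pairs narrowly missed the adjusted threshold. Between miR-199 and miR-214, which can come from a shared transcript, r was 0.91 (exact permutation p = 0.00203, adjusted p = 0.0536) and rho was 0.90 (adjusted p = 0.0886, exact permutation). Between miR-145 and miR-214, r was also 0.91 (exact permutation p = 0.00206, adjusted p = 0.0536) and rho was 0.93 (adjusted p = 0.0661, exact permutation). Among all pairs the median r was 0.18 and the upper quartile 0.61. An r at least as high as that of miR-145 and miR-199 was reached by 0.784% of pairs, and one at least as high as that of miR-199 and miR-214 by 3.23%. Samples 7 and 3 lie farthest from the median of miR-145 and of miR-199, and without them r was 0.85 for each of the 3 pairs (n = 6; exact permutation p = 0.0319 for miR-145 and miR-199, 0.0361 for miR-199 and miR-214, and 0.0389 for miR-145 and miR-214, unadjusted).

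**Figure D3:**
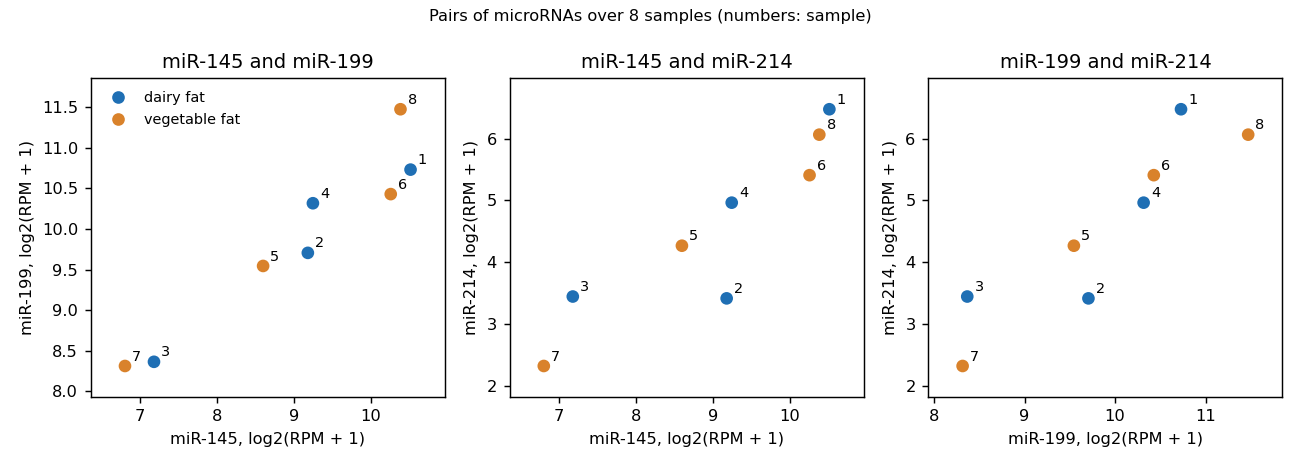
Each pair of the 3 microRNAs on log2(RPM + 1), with the sample number beside each point and the diet as colour. Samples 7 and 3 lie at the low end and samples 1, 6 and 8 at the high end of each panel, r runs from 0.91 to 0.96, and sample 2 is low in miR-214 for its miR-145 and miR-199.

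The call of the first pair did not survive the loss of a sample: with 1 left out its r ran from 0.94 to 0.98, with adjusted p from 0.0531 to 0.114 by the exact permutation test, which has fewer pairings at 7 samples. As deviations from the mean of each diet, r was 0.96, 0.91 and 0.91 for miR-145 with miR-199, miR-145 with miR-214 and miR-199 with miR-214 (adjusted p = 0.0939, 0.107 and 0.122, permutation within diets).

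The levels of all 3 also fell with the read total of the library. In a limma fit with diet and log2 read total, each doubling of reads went with a change of −1.75 ± 0.33 (SE) on log2(RPM + 1) for miR-145, −1.38 ± 0.28 for miR-199 and −1.86 ± 0.37 for miR-214 (limma adjusted p = 0.00147 for each). Falling slopes were common: 34 of the 104 (32.7%) were called falling and 2 (1.92%) rising, and the median slope was −0.30. The slopes of miR-214, miR-145 and miR-199 were the 3rd, 5th and 11th steepest of the 104.

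The read total is also the divisor of RPM. With median of ratios factors the median slope was 0.03, with 18 called falling and 11 rising, and the slopes were −1.41, −1.04 and −1.53 for miR-145, miR-199 and miR-214 (limma adjusted p = 0.0229 for each). Relative to the median of all, the slopes were −1.45, −1.09 and −1.56 on RPM and −1.44, −1.07 and −1.56 with those factors.

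Correlation gave a less firm result than the fit. Pearson's r with log2 read total was −0.84 for miR-145, −0.86 for miR-199 and −0.87 for miR-214 (exact permutation, adjusted over all tested p = 0.0792, 0.0639 and 0.0628). Spearman's rho was −0.95, −0.98 and −0.83 (adjusted p = 0.0297, 0.0297 and 0.0571, exact permutation). Of the 104 tested, these exact tests called 3 falling and 0 rising by Pearson's r, and 15 falling by Spearman's rho. Without samples 8 and 1, the farthest in read total, r was −0.83, −0.72 and −0.78 (n = 6; unadjusted exact permutation p = 0.00556, 0.0389 and 0.0528).

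The reads behind these levels ranged less than the levels. MiR-145 had 2062, 1798, 495 and 1947 reads in dairy samples 1 to 4, and 1271, 2272, 443 and 1419 in vegetable samples 5 to 8. MiR-199 had 2389, 2587, 1130 and 4087 reads in dairy samples and 2450, 2554, 1270 and 3013 in vegetable samples. In reads, the fold from lowest to highest sample was 5.13 for miR-145, 3.62 for miR-199 and 7.75 for miR-214, smaller than in RPM. The deepest 2 libraries, samples 7 and 3, held the fewest reads of miR-145 and of miR-199 as well as the lowest RPM.

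**Figure D4:**
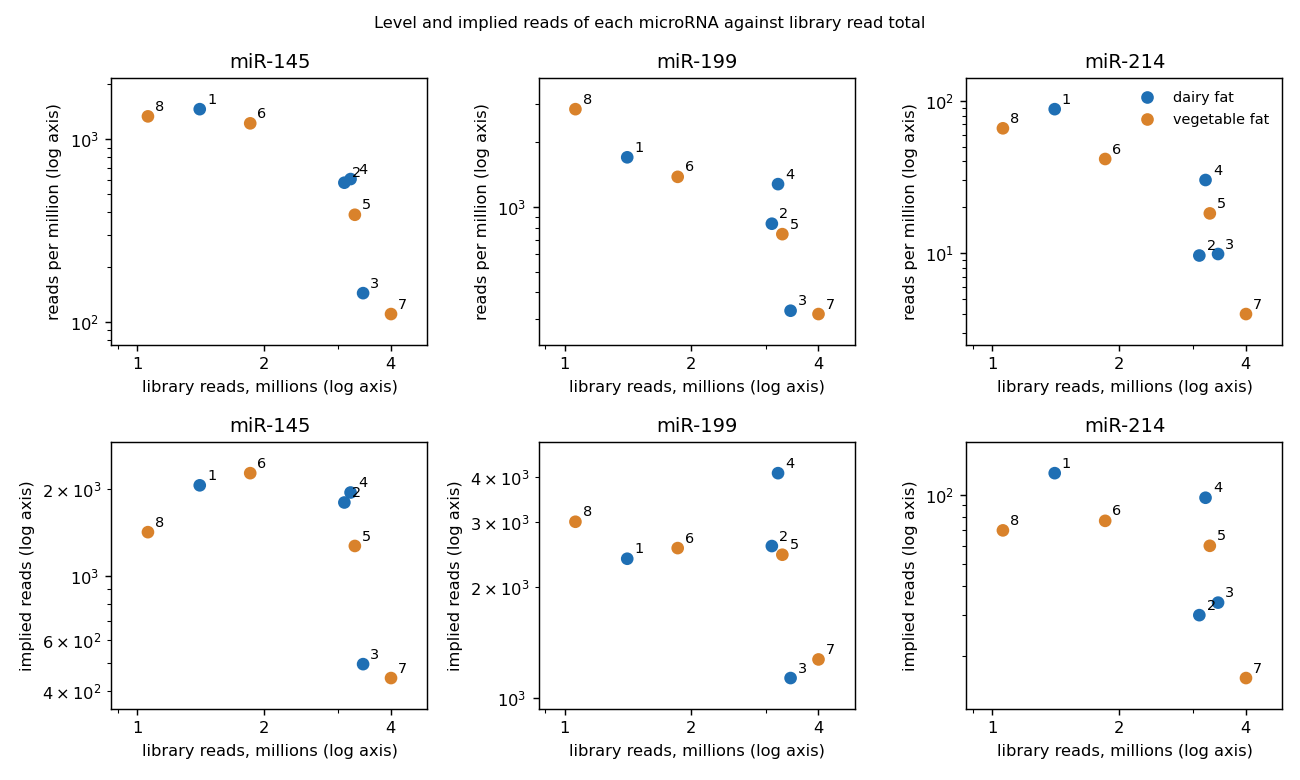
RPM (upper row) and implied reads (lower row) of each microRNA against the library's implied reads in units of 1000000, all on log axes, with sample numbers. RPM is highest in the shallow samples 8, 1 and 6, while reads of miR-145 and miR-199 are lowest in the deep samples 3 and 7, at 443 to 1270 reads.

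With log2 read total removed from each microRNA, the correlations over samples were 0.85 for miR-145 and miR-199, 0.67 for miR-145 and miR-214 and 0.63 for miR-199 and miR-214 (adjusted p = 0.100, 0.312 and 0.339, permutation of residuals, which called 0.243% of all pairs with a positive r). In the fit with read total the diet differences were −0.41 ± 0.43 (SE), −0.15 ± 0.36 and −0.48 ± 0.49 for miR-145, miR-199 and miR-214 (limma adjusted p = 0.930 for each). What the read total reflects was not tested.

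Ratios between the 3 do not depend on how a library is scaled. The log2 ratio of miR-145 to miR-199 was −0.75 ± 0.46 for dairy fat and −0.93 ± 0.56 for vegetable fat (SD, 4 samples each; two-sided exact permutation p = 0.714). For miR-199 to miR-214 it was 5.29 ± 0.90 and 5.54 ± 0.54 (exact permutation p = 0.714), and for miR-145 to miR-214 it was 4.54 ± 0.93 and 4.61 ± 0.27 (exact permutation p = 0.943). None of the 3 ratios separated the diets, and the smallest p that 4 samples against 4 can give is 0.0286. Over the 8 samples the SD of the log2 ratio was 0.49 for miR-145 to miR-199, 0.70 for miR-199 to miR-214 and 0.64 for miR-145 to miR-214, where all pairs of tested microRNAs had a median of 0.79. MiR-199 over miR-214 was as low as 19.3 in dairy sample 1 and as high as 86.2 in dairy sample 2, and the latter rests on 30 reads of miR-214.

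**Figure D5:**
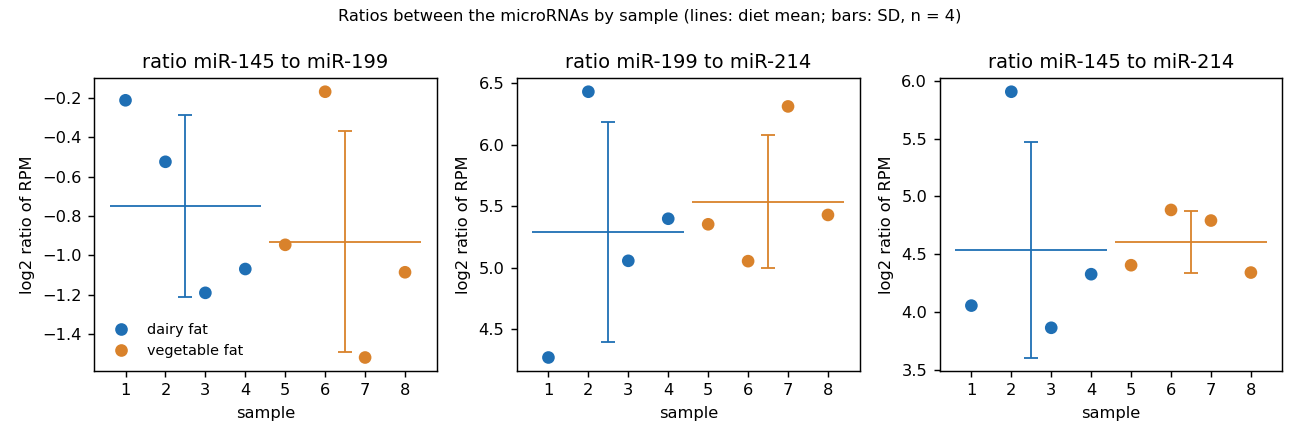
Log2 ratio of RPM between the 3 microRNAs in each sample, with the mean and SD of each diet (n = 4). The diets overlap in each panel, and sample 2 is the highest for both ratios over miR-214.

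The microRNAs most like each of the 3 over the 8 samples were taken as the 5 of highest Pearson's r, a description over libraries that share depth. For miR-145 these were miR-130a (r = 0.99), let-7c (0.98), miR-146a, which dampens NF-kappaB signalling (0.96), miR-132 (0.96) and miR-199 (0.96). For miR-199 they were miR-381 (0.98), miR-409 (0.96), miR-145 (0.96), miR-146a (0.96) and miR-411a (0.94), where miR-381, miR-409 and miR-411a belong to the imprinted DLK1-DIO3 cluster. For miR-214 they were miR-100 (0.98), miR-10a (0.97), miR-132 (0.97), miR-221 (0.96) and miR-10 (0.96). By Pearson's r, for which they were picked, each of these passed the exact permutation test over all 5356 pairs, with adjusted p from 0.0234 to 0.0395. By Spearman's rho only miR-132 and miR-199 with miR-145, and miR-100 and miR-132 with miR-214, passed (exact permutation adjusted p = 0.0366). The other pairs fell short by rho (exact permutation adjusted p from 0.0550 to 0.0886).

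MiR-199 and miR-214 were not each other's nearest. By r, miR-214 ranked 15 among the 103 others for miR-199, and miR-199 ranked 14 for miR-214. MiR-145 ranked 3 for miR-199 and 15 for miR-214. MiR-199 was called positive with 10 microRNAs and miR-214 with 12, where 2.5% of all pairs were called positive. Of these 3 were shared, let-7c, miR-132 and miR-146a, which is 30% of the former and 25% of the latter. Leaving out the pair itself, miR-145 and miR-199 shared 6, and miR-145 and miR-214 shared 5. Whether these correlations differ from each other was not tested. With read total removed, the nearest of each still had a high r: miR-130a with miR-145 (0.97), miR-381 with miR-199 (0.94) and miR-100 with miR-214 (0.93). MiR-10a, ranked next for miR-214, stood at 0.97.

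Other microRNAs known from the same tissues were read from lists matched by name. Of 13 smooth muscle names 7 were listed, namely miR-145, miR-21, miR-22, miR-24, miR-26a, miR-221 and miR-222, and 0 were called between the diets (5 log2 differences above 0, 2 below, list median 0.05 against 0.07 for all). The slope with read total was called falling for 5 of the 7, miR-145 included, beside 32.7% of all 104, and missed the threshold for miR-21 (−0.47, limma adjusted p = 0.0890) and miR-26a (−0.04, limma adjusted p = 0.858). The 6 besides miR-145 had a median r of 0.82 with it, from 0.17 for miR-26a to 0.94 for miR-24. With miR-214, which is not on this list, their median r was higher, at 0.89.

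Of 17 mesenchyme and fibrosis names 13 were listed and 12 tested, and 0 were called between the diets (7 above 0, 5 below, list median 0.09). The names miR-199a and miR-199b did not match the entry miR-199, which these counts leave out. Its slope with read total was −1.38, called falling, and its r with miR-214 was 0.91. The name miR-10b had no match, and whether the entry miR-10 stands for it is not known here. MiR-10, also left out of these counts, fell with read total (slope −1.18, limma adjusted p = 0.00147) and had an r of 0.96 with miR-214. The slope with read total was called falling for 7 of the 12, beside 32.7% of all 104: miR-214 itself, miR-10a, miR-99a, miR-100, miR-22, miR-27b and miR-23b. The miR-29 family, which represses collagens, was not among them: slopes were −0.12 for miR-29a, 0.26 for miR-29b and −0.02 for miR-29c, and none was called. MiR-21 (−0.47, limma adjusted p = 0.0890) and miR-140 (0.14, limma adjusted p = 0.633) were not called either. With miR-214, r was 0.36 for miR-29a, −0.66 for miR-29b and −0.03 for miR-29c, against 0.98 for miR-100 and 0.93 for miR-23b. For miR-21 it was 0.69 and for miR-140 −0.40. The 11 besides miR-214 had a median r of 0.81 with it, below the 0.89 of the 6 smooth muscle names. With miR-145 the median r of the 11 was 0.69.

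Members of the lists for other cells moved with the 3 to unequal degree. The lists overlap: miR-221 and miR-222 are on the smooth muscle and endothelial lists, and miR-92a on the endothelial and erythrocyte lists. MiR-21 and miR-22 are on the smooth muscle and mesenchyme lists, so counts from different lists are not independent. Of 5 endothelial names 4 were matched. The other, miR-218, has entries as miR-218a and miR-218b, which matching by name left out. Both fell with read total (slope −1.04 each, limma adjusted p = 0.0181). For the 4 matched, r with miR-145 was 0.86 for miR-126, 0.88 for miR-221, 0.86 for miR-222 and −0.01 for miR-92a. With miR-214 r was 0.77, 0.96, 0.96 and 0.35 in the same order. The median r of the 4 was 0.86 with miR-145 and 0.87 with miR-214. Both exceed the medians of the smooth muscle list with miR-145 (0.82) and the mesenchyme list with miR-214 (0.81). Among the 4, the exact permutation test over all pairs called miR-221 and miR-222 with miR-214 and miR-126 with miR-199 (r = 0.92), and 0 with miR-145. The summed level of the 4 ran from 12213 to 19101 RPM on dairy fat and from 10233 to 21324 on vegetable fat. Of 9 erythrocyte names 4 were listed (miR-486, miR-15a, miR-92a and miR-182), with a summed level from 61365 to 99205 RPM on dairy fat and from 67361 to 117946 on vegetable fat. They went different ways: r with miR-145 and with miR-214 was 0.51 and 0.71 for miR-486, −0.95 and −0.88 for miR-15a, −0.01 and 0.35 for miR-92a, and 0.05 and 0.20 for miR-182. Of 8 platelet and leukocyte names 4 were listed (miR-191, miR-197, miR-342 and miR-146a), with a summed level from 158141 to 207437 RPM on dairy fat and from 149080 to 212496 on vegetable fat. Their r with miR-145 was 0.24, 0.44, 0.51 and 0.96 in that order. Of the 3 liver names and the 7 heart and skeletal muscle names, 0 were among the 108, and miR-451a, miR-16, miR-223 and miR-122 are not analysed here. The part of other cells in the levels of miR-145, miR-199 and miR-214 was not tested.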

How the data were processed

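Per the labels' protocols, RNA was isolated from plasma using the miRNeasy Micro kit, and the QIAseq miRNA kit gave the libraries. The submitters' processing notes name cutadapt 3.4. Other steps (aligner, counter, reference set, molecular identifiers) were not given in the sources used here. Deposited values are RPM over 108 microRNAs, set by the authors, and sum to 1000000 in each sample. In each sample 108 of 108 values were whole multiples (tolerance 0.01) of the value of 1 read, from which read numbers were derived. No count model was run on them, because a table of this size has too few low values to check that step. Diet groups come from the titles; in the 4 vegetable fat tables the header's number differs from the title's while the diet is the same. Every pair of libraries differed by more than counting noise (chi-square at least 304 times its degrees of freedom), so none repeats the file of another. Repeat libraries of one plasma can also differ by more than counting noise, and each library was used as 1 sample as the titles give it.

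Limma 3.58.1 (R 4.3.3; trend and robust options) was fitted to log2(RPM + 1). MicroRNAs needed 1 RPM in 4 or more samples, which left 104, and p-values were adjusted over these by Benjamini-Hochberg. Correlations used exact two-sided permutation over the 40320 pairings, and ratios used exact permutation over 70 assignments (Python 3.11.15, numpy 2.4.6). A log2(RPM + 1) fold understates the change of scarce microRNAs. The fits were tested on simulated data whose spread was smaller than that of miR-145, miR-199 and miR-214 (SD within diets 1.54, 1.20 and 1.55 on log2(RPM + 1)). That test therefore does not tell how well a change in these 3 would be found. Named are the 3 microRNAs, the members of the lists, the 5 of highest r for each and, chosen after its values were seen, miR-590. The members and lists were chosen with earlier results of these data known.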

Additional observations from a re-analysis of the deposited data

How the results depend on the processing

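Of 180 values recomputed under alternatives, 139 kept their direction and side of the threshold, 25 changed sign without being called (2 of them the summed level, without dairy sample 3 or vegetable sample 8), 12 fell short of the threshold and 4 passed it. Every slope with read total kept its sign and call in the alternatives run. Without 1 sample the slopes ran from −2.19 to −1.41 for miR-145, −1.55 to −1.17 for miR-199 and −2.24 to −1.56 for miR-214, and the count of microRNAs called between diets was 0 throughout (0 to 4 at an unadjusted p under 0.05 over all alternatives). Diet differences without 1 sample ran from −0.64 to 0.72 for miR-145, −0.35 to 0.70 for miR-199 and −0.58 to 0.67 for miR-214. MiR-199 was −0.056 with upper quartile factors and −0.15 with read total as covariate. With the libraries of fewest and most reads left out (samples 8 and 7, chosen after seeing the data) miR-145 was 0.40 and miR-214 was 0.26. The cause was not tested.

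For miR-145 and miR-199, r fell short of the threshold as deviations from diet means (0.96), after read total (0.85), on implied reads (0.88, chosen after seeing the data) and without samples 8 and 7 (0.97), the last with fewer samples. The r of miR-145 and miR-214 passed with upper quartile (0.90) and median of ratios factors (0.87), and that of miR-199 and miR-214 with upper quartile factors (0.89). Without 1 sample r ran from 0.94 to 0.98, 0.85 to 0.97 and 0.86 to 0.94 for the 3 pairs in the order miR-145 with miR-199, miR-145 with miR-214 and miR-199 with miR-214; the second passed without dairy sample 2. The log2 ratio differences ran from −0.092 to 0.63 for miR-199 to miR-214, −0.43 to 0.015 for miR-145 to miR-199 and −0.16 to 0.52 for miR-145 to miR-214, and that of the summed level from −358 to 912 RPM.

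The edgeR alternative was not run, and miR-214 was not tested at 10 RPM in all samples, which it does not reach. No paired analysis was possible because no sample number occurs in both groups. Depth limits miR-214 most, at 16 to 124 reads.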

Other observations

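Some microRNAs ran opposite to the 3 over the 8 samples. MiR-15a, of the miR-15/16 family, had an r of −0.95 with miR-145 (exact permutation adjusted p = 0.0255 over all 5356 pairs; rho −0.98), and with read total removed r was −0.93. MiR-15a ranged from 801 to 3894 RPM, a fold of 4.86, and was the only one of the 4 listed erythrocyte names whose level rose with read total (slope 0.83, limma adjusted p = 0.0138). Its r was −0.85 with miR-199 (exact permutation adjusted p = 0.0923) and −0.88 with miR-214 (exact permutation adjusted p = 0.0680). MiR-590 had an r of −0.89 with miR-214 (exact permutation adjusted p = 0.0483) and ranged from 141 to 1077 RPM. By rho (−0.93) this pair fell short (exact permutation adjusted p = 0.0661), and with read total removed r was −0.85. The level of miR-590 also rose with read total (slope 0.96, limma adjusted p = 0.0211). These were named after their values were seen, and of all pairs 0.355% were called with a negative r.

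A sample standing apart from the other 3 of its diet was looked for in the levels, ratios and summed level of the 3, and 0 of 14 groups held one, where chance gives about 1 in 20.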
